A study of Mus musculus with 12 samples.

Results

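Immediate early genes are transcribed within minutes of a stimulus without waiting for new protein, and their mRNAs are short-lived. Growth factor, calcium, cyclic AMP and stress signals reach their promoters through MAP kinases and through factors already present in the cell, such as SRF with its ELK partners and CREB. In the heart they are known to respond to stretch, catecholamines, ischaemia and reperfusion, and their levels in excised tissue are also known to be sensitive to handling and anaesthesia. The set described here holds Nr4a1, Dusp1, Fos, Jun, Junb, Egr1, Ier2, Atf3, Btg2 and Zfp36. These 10 genes, of 18193 with a probe set of their own, were read from every probe set that the array's annotation assigns to a single one of them. There were 12 such probe sets of 45037, since Jun and Btg2 have 2 each, and the brighter one stood for the gene. The set was put together with results of these same hearts in view, so its differences are described with their errors. No p-value is printed for a member, and calls of members at a threshold are a description.

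Left ventricle RNA of C57BL/6 mice aged 8 to 9 weeks was measured on mouse expression arrays, 1 array a heart. The groups were 3 ILKR211A Tg hearts (R211A), 3 ILKS343D Tg hearts (S343D) and 6 WT hearts, whose titles run as a set written with a capital L (the WT second set, 3 hearts) and a set with a small l (the WT first set, 3 hearts). Both transgenes are cardiac-specific and carry a mutated human ILK, integrin-linked kinase, on top of the mouse gene; R211A lies in its pleckstrin homology domain and S343D is described as catalytically active. The study's methods list R211A mice and their controls with and without infarction and no S343D arrays, whereas the labels give R211A, S343D and WT hearts and name no surgery; the groups here follow the labels. Not every label repeats the left ventricle, and several say only heart. The labels call the samples separate mice, but name neither the littermate line of a WT set nor the order of dissection.

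Ilk followed the genotype labels, with signals of 8223 to 9553 in R211A hearts, 3258 to 4016 in S343D hearts, 551 to 585 in the WT second set and 611 to 657 in the WT first set. The labels number the hearts, and R211A and the WT second set hold hearts 7 to 12 while S343D and the WT first set hold hearts 1 to 6. Transgenic line and range of heart numbers therefore cannot be told apart, and each line is set both against all 6 WT hearts and against the WT set of its own range. Replicate 1 of the WT first set is labelled male and the others female, yet its Xist signal of 718 lay within the 703 to 864 of the other hearts and its Eif2s3y signal of 4.47 within their 0.636 to 8.17. All 7 ventricular cardiomyocyte markers were above the filter, with summed signals of 66176 to 82823. Atrial markers (Myl4, Myl7, Nppa and Sln) varied far more, from 1835 to 20843. The ratio of 3' to 5' signal was 0.74 to 0.80 for Gapdh and 1.09 to 1.24 for Actb, with overlapping ranges in all groups. In ventricle RNA, fewer cells of a type and less RNA per cell cannot be told apart.

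CREB and ATF factors are known to bind the letters TGACG, read on either strand. The promoters of Nr4a1 and Dusp1, the members with most copies when both strands are counted, are shown with that of Fos, a classic immediate early promoter. The Dusp1 copies at 143 and 140 bases before the start overlap as 1 palindrome, so Dusp1 has no more separate sites than Fos. They are the 250 bases before the RefSeq gene start in GRCm38.p6, in gene direction, with TGACG or its complement CGTCA in capitals. Nr4a1 lies at chr15:101266596-101266845 on the plus strand, Dusp1 at chr17:26508473-26508722 on the minus strand and Fos at chr12:85473640-85473889 on the plus strand.
Nr4a1: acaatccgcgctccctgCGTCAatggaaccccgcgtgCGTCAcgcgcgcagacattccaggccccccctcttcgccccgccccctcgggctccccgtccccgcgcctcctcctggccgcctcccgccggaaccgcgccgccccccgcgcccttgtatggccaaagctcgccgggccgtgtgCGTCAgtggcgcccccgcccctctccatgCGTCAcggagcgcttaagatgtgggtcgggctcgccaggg
Dusp1: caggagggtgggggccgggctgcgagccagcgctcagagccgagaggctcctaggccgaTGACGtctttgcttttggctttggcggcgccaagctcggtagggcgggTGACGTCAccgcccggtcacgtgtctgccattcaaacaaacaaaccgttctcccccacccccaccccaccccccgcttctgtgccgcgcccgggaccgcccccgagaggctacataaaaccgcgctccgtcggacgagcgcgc
Fos: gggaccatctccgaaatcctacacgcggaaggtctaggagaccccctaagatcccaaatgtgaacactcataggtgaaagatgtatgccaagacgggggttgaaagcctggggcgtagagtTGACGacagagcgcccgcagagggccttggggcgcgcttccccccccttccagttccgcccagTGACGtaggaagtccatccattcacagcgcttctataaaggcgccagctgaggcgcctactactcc
The table of promoters matched 8 of the 10 members, all but Egr1 and Ier2. TGACG was present in 6 of these 8 windows, against 17.8% of 32851 windows of the same length. Nr4a1 had 4 copies, at 233, 213, 69 and 40 bases before the start, and 0.137% of all windows held 4 or more. The palindrome TGACGTCA, which contains TGACG on both strands, was found in Dusp1 at 143 and Btg2 at 166 bases before the start, against 1.55% of windows. The CArG box bound by SRF was found in Zfp36 alone of these windows, against 1.47% of windows. Sites farther than 250 bases before the start, in Fos as in the others, and any in Egr1 and Ier2 were not searched. The shares are over all windows, which were not matched to the members for base content, so they do not show that the motifs are particular to the members. A match describes letters in the window and was not tied to binding.

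Among the 6 comparisons the median difference was largest between the WT sets. The median difference of the 10 members was 0.50 on the log2 scale for the WT second set against the first, with 9 members higher and 1 lower. It was 0.15 for R211A against all WT (9 higher, 1 lower), -0.04 for S343D against all WT (4 higher, 6 lower) and 0.13 for R211A against S343D (7 higher, 3 lower). Against the WT set of the same heart numbers it was -0.19 for R211A (3 higher, 7 lower) and 0.18 for S343D (8 higher, 2 lower). These last values share their WT hearts with the comparison of the sets and are not independent of it. The median of all 22519 tested probe sets was within 0.01 of 0 in each comparison.

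The test across all probe sets was limma with Benjamini-Hochberg adjustment, and an adjusted p under 0.05 was called. In the WT second set against the first, 1 of the 9 tested members was called, Nr4a1, where 0.00888% of all tested probe sets were called, and 4 of the 9 were under an unadjusted p of 0.05, where 7.99% of all tested probe sets were. Nr4a1 was the 1 probe set called higher there, and the other called probe set, Tmem267, named after its values were seen, was lower. No member was called by limma for R211A against all WT (0.204% of all called), S343D against all WT (0.00444%), R211A against S343D (0.16%), R211A against the WT second set (0.147%) or S343D against the WT first set (0.00444%). At an unadjusted p under 0.05 these comparisons held 0, 0, 0, 1 and 0 members in the same order, against 7.51%, 3.98%, 8.45%, 7.26% and 4.66% of tested probe sets. Since the members were chosen on these values, nothing is read from these counts.

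**Figure D1:**
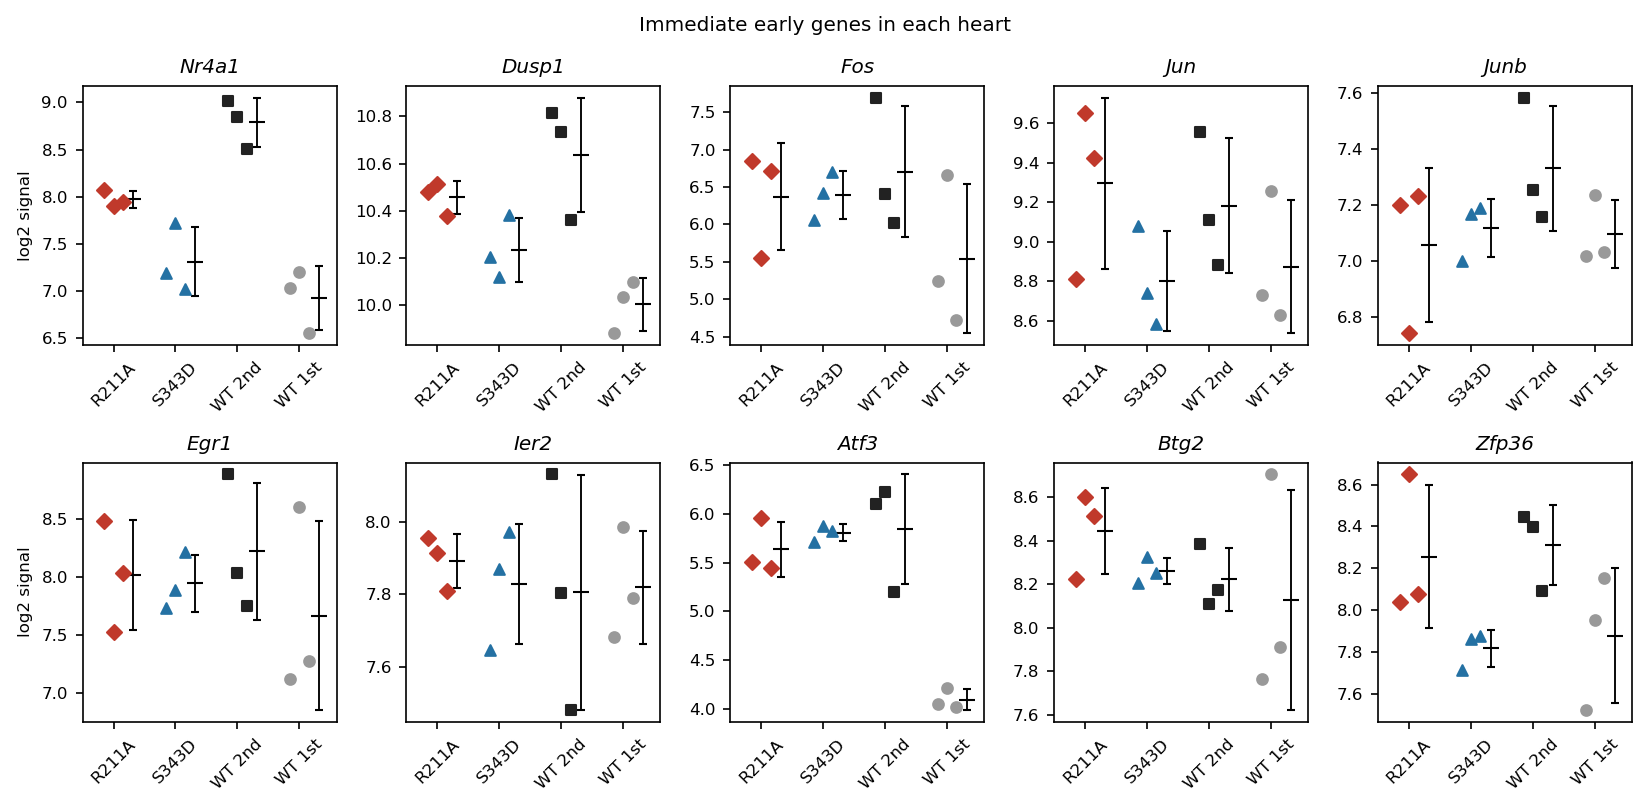
Log2 signal (vertical axis, own scale in each panel) of the 10 immediate early genes in R211A, S343D, WT second set and WT first set hearts, 1 point a heart, with the group mean and SD beside the points. The 3 WT second set hearts hold the 3 highest Nr4a1 values, and the 3 WT first set hearts the 3 lowest Atf3 values.

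Nr4a1, an orphan nuclear receptor induced by calcium and cyclic AMP signals, had signals of 269, 239 and 246 in R211A hearts, 147, 211.3 and 130 in S343D hearts, 517, 460 and 364 in the WT second set and 131, 147 and 93.9 in the WT first set (replicates 1 to 3). Every WT second set heart was above every other heart, and every R211A heart was above every S343D and WT first set heart. S343D and WT first set hearts overlapped. The WT second set was 3.63-fold above the first (log2 difference 1.86, SE 0.195), and leaving out each heart in turn gave 1.67 to 2.00.

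Set against the WT hearts of its own range, Nr4a1 was lower in R211A (log2 difference -0.82, SE 0.195, all 3 hearts below) and higher in S343D (0.38, SE 0.195, overlapping). Set against all 6 WT hearts, the same R211A hearts gave 0.11 (SE 0.453) and the S343D hearts -0.55 (SE 0.453), since the WT values lay on both sides of them. R211A was 1.58-fold above S343D (0.66, SE 0.523) with no overlap. This SE comes from the fit with all 6 WT hearts as 1 group, so it also holds the gap between the WT sets. Nr4a1 was the only member for which all of hearts 7 to 12 were above all of hearts 1 to 6, as were 0.386% of tested probe sets, with a difference of 1.26 between the ranges.

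Fos, Jun, Junb and Atf3 encode factors of the AP-1 type or related to it. Fos, the dimer partner of the Jun proteins, had signals of 115, 46.7 and 105 in R211A hearts, 66.8, 85.9 and 104 in S343D hearts, 207, 84.9 and 64.8 in the WT second set and 37.9, 101 and 26.5 in the WT first set. The groups overlapped, with the highest signal in WT second set replicate 1 and the lowest in WT first set replicate 3, which like WT first set replicate 1 lay under the filter value of 43.5. The WT second set was 2.24-fold above the first (1.16, SE 0.501), and this ran from 0.67 without WT second set replicate 1 to 1.72 without WT first set replicate 2. With 16 added to each signal before log2 it was 0.92. Against the WT of its own range Fos was at -0.34 in R211A and 0.85 in S343D (SE 0.501 each).

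Jun, the other core subunit of AP-1, had 450, 803 and 686 in R211A hearts, 541, 428 and 384 in S343D hearts, 751, 553 and 472 in the WT second set and 425, 612 and 396 in the WT first set. R211A replicates 2 and 3 and WT second set replicate 1 were high, and all groups overlapped. R211A was 1.41-fold above S343D (0.49, SE 0.233), which became 0.32 without R211A replicate 2 and 0.73 without R211A replicate 1. The dimmer Jun probe set followed the brighter one over the hearts (r = 0.85, and 0.94 without WT second set replicate 1).

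Junb, a Jun relative with weaker activating capacity, spread little, with 147, 107 and 150 in R211A hearts, 128, 144 and 146 in S343D hearts, 192, 153 and 143 in the WT second set and 130, 151 and 131 in the WT first set. WT second set replicate 1 was the highest and R211A replicate 2 the lowest heart. Its differences ran from -0.27 (R211A against the WT second set, SE 0.152) to 0.24 (WT second set against the first, SE 0.152).

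Atf3, a stress-induced member of the ATF/CREB family, had 45.5, 62.1 and 43.4 in R211A hearts, 52.4, 58.9 and 56.9 in S343D hearts, 69.0, 74.9 and 36.6 in the WT second set and 16.5, 18.5 and 16.2 in the WT first set. All 3 WT first set hearts were below all other hearts, and the other groups overlapped. Its mean lay under the filter (a signal of 43.5), so it was not tested. The WT second set was 3.37-fold above the first (1.75, SE 0.277) and S343D 3.29-fold above the first (1.72, SE 0.277). With 16 added to each signal before log2 these became 1.16 and 1.12.

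Egr1, a zinc finger factor induced through SRF, had 359, 185 and 263 in R211A hearts, 213, 238 and 298 in S343D hearts, 474, 262 and 216 in the WT second set and 140, 389 and 155 in the WT first set. WT second set replicate 1 and WT first set replicate 2 were the highest hearts, and WT first set replicates 1 and 3 the lowest, so that the WT first set alone covered most of the range. The WT second set was 1.47-fold above the first (0.56, SE 0.365). This difference was 1.02 without WT first set replicate 2 and 0.23 without WT second set replicate 1.

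Dusp1, Zfp36 and Btg2 are known to dampen a response. Dusp1, a phosphatase that switches off p38, JNK and ERK, had 1429, 1461 and 1330 in R211A hearts, 1181, 1111 and 1335 in S343D hearts, 1802, 1703 and 1315 in the WT second set and 943, 1048 and 1095 in the WT first set. WT second set replicates 1 and 2 were the highest, and every heart of the WT first set was below every other heart. The WT second set was 1.55-fold above the first (0.63, SE 0.110), not called over all 12 hearts but called without WT second set replicate 3 (0.77). Against the WT of its own range Dusp1 was at -0.18 in R211A and 0.23 in S343D (SE 0.110 each), and the S343D hearts did not overlap with their WT. For Dusp1 and Nr4a1, as for 4.89% of tested probe sets, every R211A heart was below the WT second set mean and every S343D heart above the WT first set mean.

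Zfp36 (tristetraprolin), which binds AU-rich mRNAs and speeds their decay, had 263, 401 and 270 in R211A hearts, 210, 233 and 235 in S343D hearts, 348, 338 and 273 in the WT second set and 184, 248 and 285 in the WT first set. All R211A hearts were above all S343D hearts, a 1.35-fold difference (0.44, SE 0.206) that was 0.24 without R211A replicate 2. The WT sets overlapped, with a difference of 0.43 (SE 0.177).

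Btg2, an antiproliferative protein that recruits the CCR4-NOT deadenylase, had 299, 388 and 365 in R211A hearts, 295, 321 and 305 in S343D hearts, 335, 276 and 289 in the WT second set and 218, 418 and 241 in the WT first set. WT first set replicate 2 was the highest heart and replicates 1 and 3 of that set the lowest. Its differences ran from 0.09 to 0.27 over the 6 comparisons. That between the WT sets was 0.09 (SE 0.191), and turned to -0.09 without WT first set replicate 1 and to 0.38 without WT first set replicate 2. The dimmer Btg2 probe set followed the brighter one poorly (r = 0.32, and 0.49 without R211A replicate 1, where they differed by 1.14 against at most 0.78 in other hearts). Its sign was opposite in 4 comparisons, at -0.08 for R211A against all WT, -0.05 for S343D against all WT, -0.04 for R211A against S343D and -0.22 for R211A against the WT second set (0.27, 0.09, 0.19 and 0.22 by the brighter one). The dimmer probe set was wholly higher in the WT second set than in the first (0.28, SE 0.241), so Btg2 has no settled direction.

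Ier2, a nuclear protein of the immediate early response, was the flattest member. Its signals were 248, 241 and 224 in R211A hearts, 201, 234 and 251 in S343D hearts, 280, 224 and 179 in the WT second set and 205, 254 and 221 in the WT first set. The highest and the lowest heart were both in the WT second set. All 6 differences lay between -0.01 and 0.09 (SE 0.124 to 0.147).

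Across members, groups that did not overlap were few and their share is set beside that of all probe sets. In the WT second set against the first, 2 of the 9 tested members were wholly higher (Nr4a1 and Dusp1), against 6.98% of tested probe sets, and so was the untested Atf3. In R211A against S343D, 2 of the 9 were wholly higher (Nr4a1 and Zfp36), against 7.55%. In S343D against the WT first set, 1 was wholly higher (Dusp1), against 5.06%, beside the untested Atf3, and in R211A against the WT second set 1 was wholly lower (Nr4a1), against 7.07%. No member was separated in R211A against all WT (4.07% of tested probe sets) or in S343D against all WT (2.03%). The members were chosen on these signals, so these counts are a description.

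**Figure D2:**
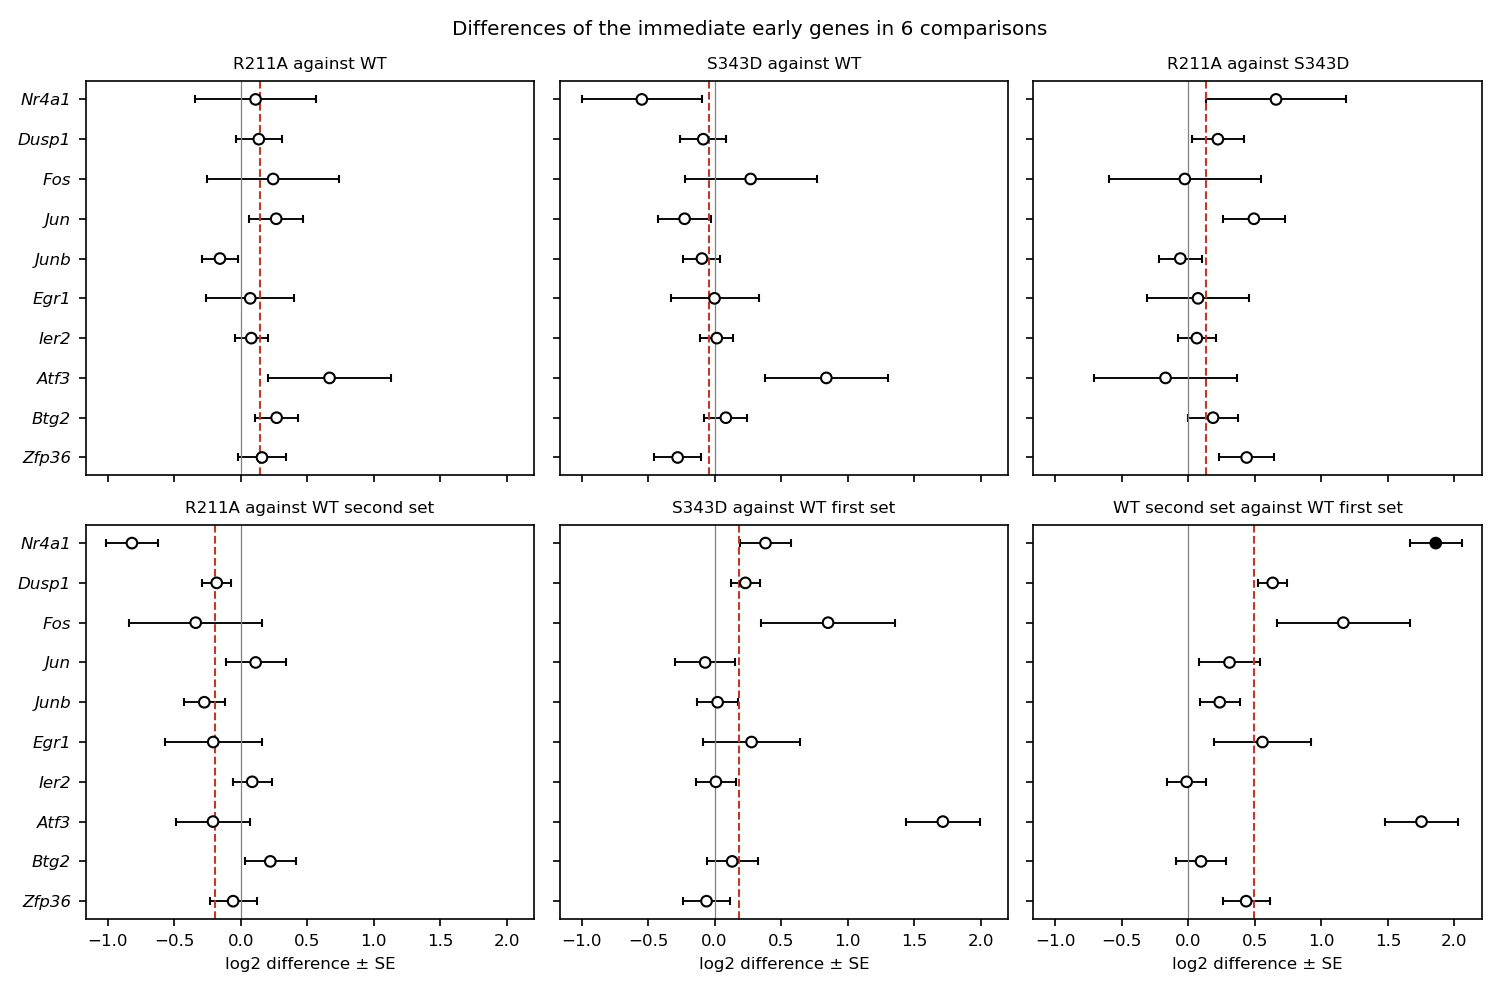
Log2 difference with SE (horizontal axis) of each gene in the 6 comparisons, with the median of the 10 genes as a dashed line and the called difference as a filled point. The median is 0.50 in the WT second set against the WT first set and between -0.19 and 0.18 in the other 5 comparisons.

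Single hearts set much of this spread. Each gene was centred on its own mean over the 12 hearts and the 10 genes were averaged per heart. The averages were 0.16, 0.10 and 0.16 in R211A hearts, -0.14, 0.00 and 0.00 in S343D hearts, 0.66, 0.29 and -0.04 in the WT second set and -0.60, -0.02 and -0.58 in the WT first set. By group they were 0.14 ± 0.035 in R211A, -0.05 ± 0.084 in S343D, 0.31 ± 0.35 in the WT second set and -0.40 ± 0.33 in the WT first set (SD, n = 3 each). These averages lay close together in the transgenic hearts and far apart within both WT sets, which overlapped at WT first set replicate 2 and WT second set replicate 3. Single genes did not share that closeness, and in R211A replicate 2 Fos was at -0.71, Egr1 at -0.43 and Junb at -0.41 while Jun was at 0.61, Atf3 at 0.61 and Zfp36 at 0.58, which average to 0.10 with the other members.

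WT second set replicate 1 had all 10 members above their means and held the highest value of 6 of them. WT first set replicate 1 had 0 of 10 above and held the lowest value of 4, and WT first set replicate 3 had 1 of 10 above and held the lowest value of 3. The median difference between the WT sets was 0.27 without WT first set replicate 1 and 0.66 without WT second set replicate 3. That of R211A against the WT second set changed sign, to 0.07, without WT second set replicate 1, and that of S343D against the WT first set was -0.005 without WT first set replicate 1. R211A against all WT was 0.05 without WT first set replicate 1, and 0.29 without WT second set replicate 1.

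**Figure D3:**
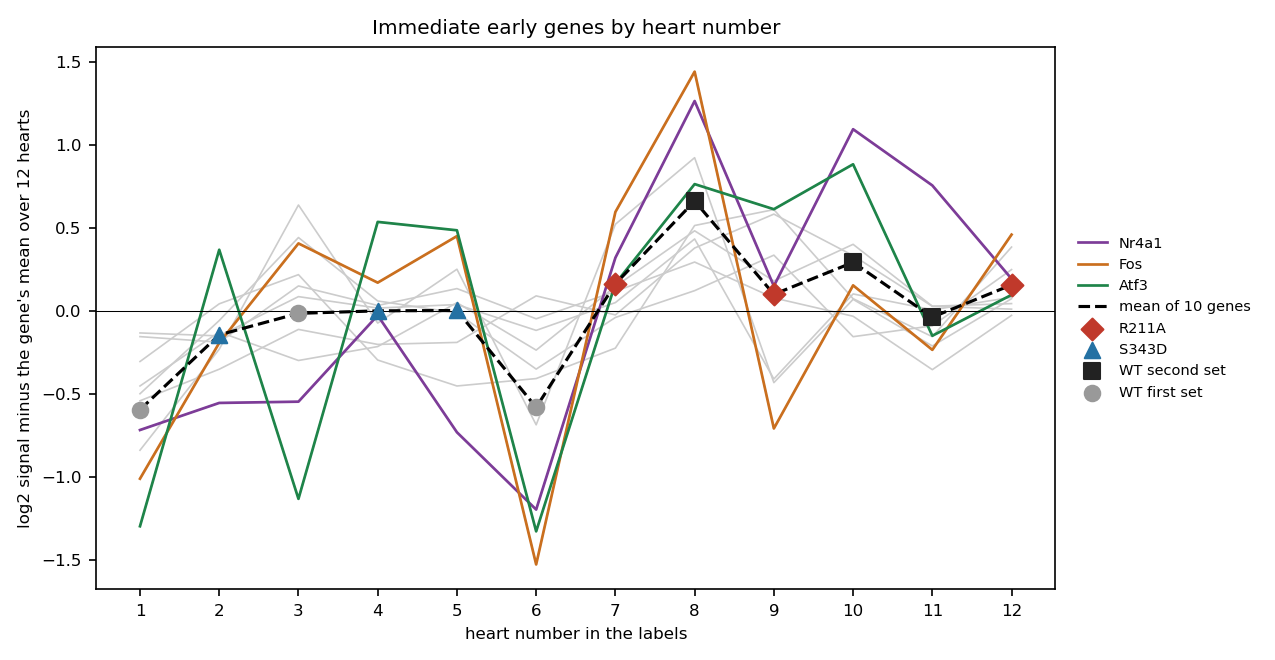
Log2 signal of each gene minus its mean over 12 hearts (vertical axis) against the heart number in the labels (horizontal axis), with Nr4a1, Fos and Atf3 in colour, the other genes in grey and the mean of 10 genes as a dashed line with a marker for each group. Hearts 1 and 6 of the WT first set average -0.60 and -0.58 and heart 8 of the WT second set 0.66, while the 6 transgenic hearts stay between -0.14 and 0.16.

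The members varied together over the hearts. All 45 pairs had a Pearson r above 0 over 12 hearts, from 0.08 to 0.94 with a median of 0.49. With each group's mean taken out, 41 of 45 stayed above 0, from -0.21 to 0.95 with a median of 0.44. All values come from the same 12 arrays, so array scale and RNA are shared by every pair, and no p-value is attached.

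Fos and Egr1 were the closest pair (r = 0.94, Spearman 0.93), with 0.95 inside groups. Junb was most like Fos (0.79, and 0.90 inside groups) and Ier2 most like Egr1 (0.69, and 0.77 inside groups). Nr4a1 and Dusp1 were each other's closest (0.82, Spearman 0.71), but at -0.01 inside groups, so their likeness lay between the groups. Atf3 and Zfp36 were most like Dusp1 (0.79 and 0.77, and 0.74 and 0.64 inside groups), and Jun and Btg2 each other (0.70, and 0.72 inside groups).

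**Figure D4:**
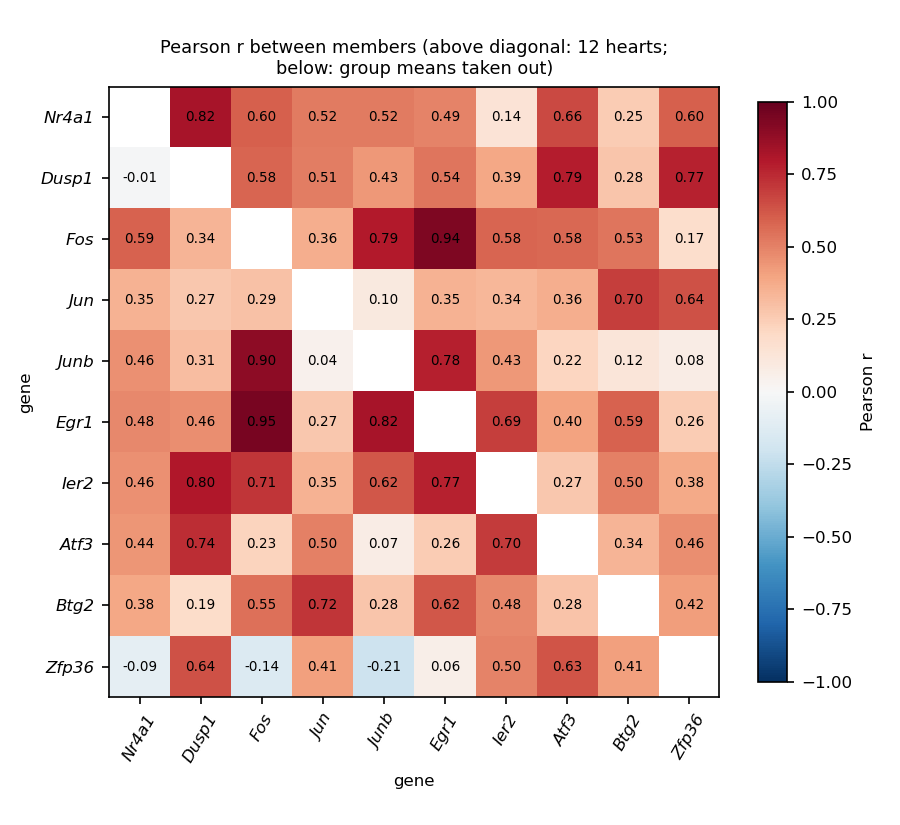
Pearson r between the log2 signals of the 10 genes (rows and columns), over 12 hearts above the diagonal and with group means taken out below it, on a colour scale of -1 to 1. Fos, Egr1 and Junb stand together on both sides of the diagonal, and the pair of Nr4a1 and Dusp1 has 0.82 above it and -0.01 below it.

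Markers of other cell types also differed between hearts. The skeletal actin gene Acta1, also made by cardiomyocytes, had its highest signals of 4001 and 3877 in WT first set replicates 1 and 3, the hearts where the members were lowest, against 1178 to 2149 in the other hearts. The other skeletal muscle markers Myh4 and Actn3 were at most 25.5 and 23.3, under the filter in every heart. The summed list correlated with the members' average at r = -0.84 over 12 hearts. The summed atrial list was 20084, 2608 and 4082 in R211A hearts, 11899, 20843 and 1835 in S343D hearts, 15898, 2843 and 9016 in the WT second set and 2541, 12620 and 3264 in the WT first set. Its median was 0.74 higher in the WT second set than in the first, with 4 of 4 genes above 0 and none called. Each of these differences was below its own SE (0.64 to 1.99). The r of the atrial sum with the members' average was 0.36. By gene it ran from -0.10 for Zfp36 to 0.50 for Fos and 0.53 for Egr1. The smooth muscle and pericyte sum had an r of -0.52 with the members and a median of 0.10 between the WT sets (4 of 5 above 0). The erythroid sum had an r of -0.43, and its 1 tested gene, Alas2, was at -0.51 in the WT second set against the first. All 5 fibroblast markers were at lower values in the WT second set (median -0.21), with an r of -0.16 between their sum and the members. None of these was called, and the r of the other lists lay between -0.31 and 0.33. Between the WT sets Acta1 was at -1.06. In S343D against the WT first set the atrial median was 0.62 and the mesothelial one 0.87, with Acta1 at -0.65 and Alas2 at -0.62. The other tested lists had medians of -0.11 to 0.09 there, and no marker was called. The part of these markers in the results was not tested.

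**Figure D5:**
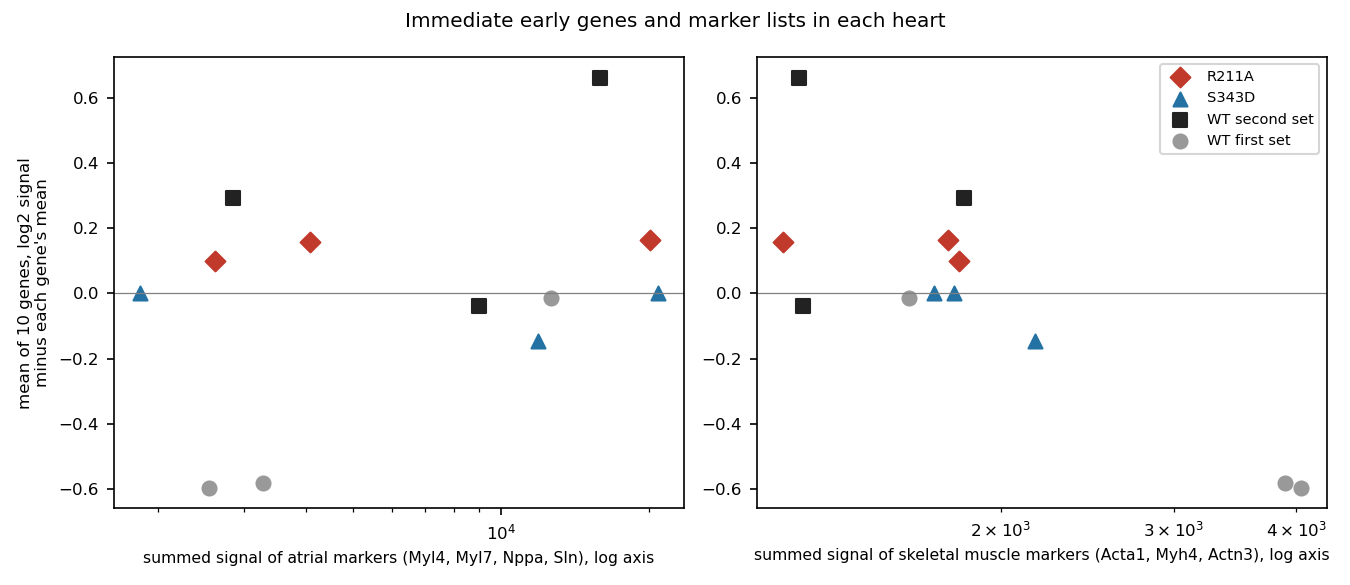
Mean of the 10 genes, as log2 signal minus each gene's mean (vertical axis), against the summed signal of atrial markers (left, log axis) and of skeletal muscle markers (right, log axis), 1 point a heart, coloured by group. The WT first set hearts at 4043 and 3893 on the right have the lowest means. The atrial sums on the left span 1835 to 20843, and their r with the means is 0.36.

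Other immediate early genes were read from lists drawn up by function with earlier results of these data known, so their counts are a description. Of 25 other transcription factors of the class, 18 were measured, and in the WT second set against the first 15 were above 0 and 3 below, with a median of 0.27 against 0.50 for the members. None was called by limma. Under an unadjusted p of 0.05 were 8 of the 18, among them Klf10 at -0.58, against 7.99% of tested probe sets. Of the 18, 8 were wholly higher and 1 wholly lower, against 6.98% and 5.64%. The 4 brightest were at 0.22 for Jund, an AP-1 subunit that is made constantly, 0.33 for Cebpb, 0.15 for Irf1 and 0.77 for Klf2, a factor known from the endothelial response to flow. Klf2 had an adjusted p of 0.227.

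Of 33 other effectors with a probe set, 25 were measured, with a median of 0.05 between the WT sets (14 above 0, 11 below), none called and 7 under an unadjusted p of 0.05 (7.99% of all). The brightest were the small GTPase gene Rhob at 0.23, the NF-kB inhibitor gene Nfkbia at 0.40, the anti-apoptotic Mcl1 at 0.10 and the Zfp36 relative Zfp36l1 at 0.14. Of 20 upstream kinases and factors with a probe set, 19 were measured, with a median of 0.06 (14 above 0, 5 below), none called and none under an unadjusted p of 0.05. Mapk14 (p38) was at -0.08, Atf4 at 0.11, Atf2 at 0.13 and Map2k1 (MEK1) at 0.10.

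In R211A or S343D against WT and in R211A against S343D no gene of these 3 lists was called by limma either. The transcription factor list had medians of 0.06 for R211A against all WT, -0.06 for S343D against all WT and 0.19 for R211A against S343D, with 0, 2 and 2 genes under an unadjusted p of 0.05. In the same comparisons 1, 3 and 5 effectors and 2, 2 and 2 upstream genes were under it. Of all tested probe sets 7.51%, 3.98% and 8.45% were under it there. The counts are out of 18, 25 and 19 measured genes, and some lie above and some below the share over the array. Over the hearts, 17 of 18 of these factors had an r above 0 with the members' average and 7 were over 0.5, with a median of 0.41. For the effectors 17 of 25 were above 0 and 7 over 0.5, led by Dusp6 (0.71), with a median of 0.10, and for the upstream list 12 of 19 and none. Over all measured genes 47.4% were above 0 and 4.66% over 0.5.

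Among 11180 other measured genes the 8 closest to the members' average over 12 hearts were Tmem100 (r = 0.88), Nup214 (0.85), Spindoc, Ust, Kif3b and Gxylt2 (0.83 each), and Otud1 and Heatr1 (0.81 each). Tmem100 encodes a small membrane protein known from endothelial cells and Nup214 a nuclear pore component. None of the 8 was in the lists above. Their r values were picked as the highest of 11180 over only 12 hearts, so they are a description and were not tested. Their log2 signals in WT first set replicates 1 and 3 were the lowest of all hearts for Tmem100 (6.203 and 6.25), and WT second set replicate 1 had its highest (7.08).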

How the data were processed

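Per the labels and the study's methods, total RNA of 12 hearts was hybridised to Affymetrix mouse genome arrays, 1 array a heart. The deposited values are linear signal intensities that the authors computed with MAS5 in GCOS; every array has a mean of 150 without the lowest and highest 2%, and median signals run from 41.5 to 49.1. What the sources used here do not give is the MAS5 version, target or detection calls. Probe-level data were not used. One array per heart and 3 hearts a group limit the precision.

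The 64 control features of 45101 were left out. Signals were taken to log2 with nothing added. The 22519 of 45037 probe sets with a mean log2 signal of at least the median (5.44, a signal of 43.5) were tested, and 11189 genes had such a probe set. By the platform annotation, 34945 probe sets name 1 gene, 932 more than 1 and 9160 no gene; the brightest probe set that names a gene alone stood for it. Comparisons with all 6 WT hearts, and R211A against S343D, used 3 groups with the WT hearts as 1 group. Those with a WT set used 4. All were fitted in limma 3.58.1 (lmFit, eBayes with trend, R 4.3.3), two-sided, over all 12 arrays. With 3 groups, the SEs also hold the gap between the WT sets. The fit was tested on simulated data first. SEs are limma's moderated ones; for Atf3 they come from the fit without the filter. The p-values measure the spread between mice as labelled.

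The members and lists were chosen with earlier results of these data known, so no p-value is printed for a member and calls of members are a description. Besides the members and Ilk, the text names the 4 brightest genes of each list and the 8 genes closest to the members' average. Xist, Eif2s3y, Tmem267, Dusp6, Klf10 and markers are named as checks or within counts. Promoters are RefSeq's. Correlations used scipy 1.17.1 and plots matplotlib 3.10.9, under Python 3.11.15. Alternatives covered array scaling, an offset of 16, array weights, filters, the trend, which arrays were fitted, each heart left out, a replicate block, the probe set, the mean in place of the median and an unadjusted threshold.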

Additional observations from a re-analysis of the deposited data

Results flagged for a closer look

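Nr4a1 and Dusp1 differed in direction between the lines when each line was set against the WT set of its own heart numbers. For Nr4a1 every R211A heart was below the mean of the WT second set and every S343D heart above the mean of the WT first set, and the differences (-0.82 and 0.38 on the log2 scale) lay apart by -1.2005 for R211A minus S343D. For Dusp1 the differences were -0.18 and 0.23, which is -0.41 for R211A minus S343D. Whether the lines differ in this way was not tested. The same pattern was seen in 4.89% of tested probe sets. The WT sets themselves differed by 1.86 for Nr4a1 and 0.63 for Dusp1. Line, WT set and range of heart numbers cannot be told apart.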

How the results depend on the processing

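Of 1260 recalculated differences of single members (60 differences under 21 settings each), 1253 kept their side of the threshold and moved by less than 1 SD. Of the rest, 6 moved further and 1, Dusp1 between the WT sets, became called. The count does not look at sign. In R211A against all WT, Nr4a1 ran from -0.15 to 0.34 and Egr1 from -0.16 to 0.32, yet both counted as kept under all 21 settings. Part of this count was fixed in advance. Nr4a1 between the WT sets was the only member difference called to begin with, so few calls could be lost. The filters, the trend, fitting only the arrays compared and leaving out a heart outside a comparison cannot move a difference, only its call. Atf3 was not tested and had no call to keep. The medians over the members moved by less than 1 SD (0.245) under every setting other than leaving out a heart. For the medians this is the SD of the hearts' averages within the 4 groups. It is larger in size than every median but that between the WT sets, so the other medians could reach 0 and stay within it. Leaving out each heart in turn gave medians of 0.05 to 0.29 for R211A against WT, -0.15 to 0.05 for S343D against WT, 0.07 to 0.22 for R211A against S343D, 0.27 to 0.66 for the WT second set against the first, -0.34 to 0.067 (this one without WT second set replicate 1, the single shift past 1 SD) for R211A against the WT second set and -0.005 to 0.33 for S343D against the WT first set. Probe sets called over the whole array, in the same order of comparisons, were 46, 1, 36, 2, 33 and 1, and 33 to 52, 1 to 1, 10 to 49, 2 to 4, 7 to 37 and 1 to 2 with each heart left out. At an unadjusted p under 0.05 there were 1691, 897, 1902, 1800, 1635 and 1050. For R211A against S343D, 5 were called without the trend, 55 with array weights and 16 with only the arrays compared; for R211A against the WT second set, 21 without the filter, 5 without the trend and 13 with only the arrays compared; for the WT sets, 1 with only the arrays compared. The cause of these changes was not tested. Deviations of same-numbered hearts had r from -0.21 to 0.21 (18 pairs, median -0.02, 5 over 0.1). Those of hearts with different numbers had r from -0.16 to 0.13 (36 pairs, median -0.02, 5 over 0.1). Whether the numbers pair the hearts was not tested. With the replicate number as a block 52, 1, 38, 3, 26 and 1 probe sets were called. Atf3 was too dim to be tested, and its differences depend on the offset.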
